A study of Homo sapiens with 9 samples.

Results

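The genes described here are 10 ligands, receptors and response genes of the VEGF and PDGF pathways. They were chosen by name among the 27111 genes of the tables, with earlier results of these data known. They are the ligands VEGFA, VEGFB, VEGFC, PDGFA and PDGFB, the receptors FLT1, KDR, PDGFRA and PDGFRB, and ESM1. All 10 were found and all 10 passed edgeR's expression filter, with 17108 of all genes. Messenger RNA was measured by RNA-seq in multicellular tumor spheroids (MTSs) of PC3, a human prostate cancer cell line. The cells had been stably transduced by lentivirus and selected with puromycin, and carried an empty vector (Empty) or one for over-expression of the long (NF-YAl) or the short (NF-YAs) isoform of the transcription factor subunit NF-YA. Empty cells therefore share the vector, the transduction and the selection with both over-expressing lines. With 1 line per vector, effects of a transgene and of its line cannot be told apart. Each group had 3 libraries, and for each library 18 spheroids seeded with 5000 cells were pooled after 7 days of culture.

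The labels letter the replicates A, B and C, except that NF-YAl has a D and no C, and libraries held 18076979 to 27163976 expected counts each. Levels are TMM-scaled CPM, that is counts scaled to a common library size. A gene was called when the Benjamini-Hochberg adjusted p of edgeR's quasi-likelihood test was under 0.01 and its |Log2FC| above 1, and both over-expressing lines were compared with the same Empty libraries. NFYA was up-regulated in NF-YAl (Log2FC 1.89, SE 0.112, adjusted p = 6.41e-07) and in NF-YAs MTSs (1.51, SE 0.111, adjusted p = 2.21e-06). The over-expressed isoforms are murine, so these values hold human NFYA together with those murine reads that aligned to it. NF-YAl replicate D stood apart from its group, with a chi-square of its counts per gene of 86.7 and 70.4 against replicates A and B, which differed from each other by 28.9. Empty replicate A differed from Empty replicates B and C by 47.3 and 47.4, and these from each other by 10.9. Values without single NF-YAl libraries are therefore given beside the results they touch. Leaving out Empty replicate A was among the alternative fits below, and its values are not printed singly.

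VEGF and PDGF ligands are secreted dimers that bind receptor tyrosine kinases, which then signal through the RAS and ERK cascade, PI3K and phospholipase C gamma. KDR carries most of the mitogenic VEGF signal in endothelial cells, FLT1 binds VEGFA and VEGFB with high affinity and is also made as a soluble decoy, and the PDGF receptors are best known in fibroblasts, pericytes and smooth muscle. In carcinomas the ligands are usually made by the tumor cells and the receptors by vessels and stroma. ESM1, or endocan, is a secreted proteoglycan of endothelial cells whose transcription responds to VEGFA.

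On GRCh37, PDGFRA lies on the plus strand at chr4:55095447-55164412 and KDR on the minus strand at chr4:55944648-55991762, next to each other except for KIT. FLT1 lies on the minus strand at chr13:28874483-29069282, ESM1 on the minus strand at chr5:54273695-54318499 and PDGFRB on the minus strand at chr5:149493402-149535435. Among the ligands, VEGFA lies on the plus strand at chr6:43737921-43754224, VEGFB on the plus strand at chr11:64002056-64006736, VEGFC on the minus strand at chr4:177604689-177714076, PDGFA on the minus strand at chr7:536895-559933 and PDGFB on the minus strand at chr22:39619364-39640987. No other gene of the tables overlapped any of the 10 gene spans.

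NF-Y is known to bind the CCAAT box, so the 250 bases before the annotated starts were read for CCAAT on both strands, that is for CCAAT or ATTGG. RefSeq promoter windows on GRCh38.p14 matched 8 of the 10 genes, with 12 windows. VEGFA and PDGFB were not matched. One window each of PDGFRA, PDGFRB and PDGFA held a CCAAT, beginning 74, 94 and 137 bases before the start. The windows of KDR, FLT1, ESM1, VEGFB and VEGFC, the other PDGFRA window and the other 3 PDGFA windows held neither word. Of all 35116 windows of this length, 32% held one, and of the 17529 windows of tested genes, 32.5%. The sequences printed here are those of the 4 genes that were called in both over-expressing lines, and of PDGFRB, a CCAAT-bearing receptor gene that was not called. They are chr4:54233710-54233959 (plus strand) for PDGFRA, chr5:150155846-150156095 (minus) for PDGFRB, chr4:55125596-55125845 (minus) for KDR, chr13:28495129-28495378 (minus) for FLT1 and chr5:54985594-54985843 (minus) for ESM1, each 5′ to 3′ along the gene, with the CCAAT in capitals.
PDGFRA: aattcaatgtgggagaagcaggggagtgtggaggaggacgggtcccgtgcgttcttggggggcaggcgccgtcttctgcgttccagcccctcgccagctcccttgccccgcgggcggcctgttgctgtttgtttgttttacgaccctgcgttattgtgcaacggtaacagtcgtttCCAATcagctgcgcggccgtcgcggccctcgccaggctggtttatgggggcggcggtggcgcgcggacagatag
PDGFRB: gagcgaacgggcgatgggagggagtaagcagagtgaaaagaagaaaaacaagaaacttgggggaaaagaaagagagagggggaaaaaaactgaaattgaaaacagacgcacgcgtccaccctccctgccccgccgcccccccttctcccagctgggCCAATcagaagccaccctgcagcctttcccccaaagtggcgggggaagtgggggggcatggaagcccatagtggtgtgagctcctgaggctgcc
KDR: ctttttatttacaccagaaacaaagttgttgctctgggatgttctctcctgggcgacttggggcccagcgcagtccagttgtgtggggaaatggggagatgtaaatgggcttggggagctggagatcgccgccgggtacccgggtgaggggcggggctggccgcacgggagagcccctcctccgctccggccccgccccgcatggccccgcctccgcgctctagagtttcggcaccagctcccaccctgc
FLT1: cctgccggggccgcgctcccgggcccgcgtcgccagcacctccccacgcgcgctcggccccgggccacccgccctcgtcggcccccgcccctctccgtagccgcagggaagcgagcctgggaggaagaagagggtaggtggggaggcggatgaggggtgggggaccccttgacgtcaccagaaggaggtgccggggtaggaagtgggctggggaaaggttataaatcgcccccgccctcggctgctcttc
ESM1: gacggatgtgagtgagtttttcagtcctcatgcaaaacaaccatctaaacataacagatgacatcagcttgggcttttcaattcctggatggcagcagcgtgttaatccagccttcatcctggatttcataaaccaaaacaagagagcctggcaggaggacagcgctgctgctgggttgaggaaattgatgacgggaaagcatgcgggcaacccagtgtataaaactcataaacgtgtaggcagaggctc
The GC content of these windows was 64% for PDGFRA, 58.4% for PDGFRB, 65.2% for KDR, 73.2% for FLT1 and 47.6% for ESM1. Of the 4 genes called in both lines, PDGFRA thus held the word, in 1 of its 2 windows, and no binding was measured.

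In both over-expressing lines, KDR, PDGFRA, FLT1 and ESM1 were up-regulated. Of the ligands, VEGFA, VEGFB, VEGFC and PDGFB had negative Log2FC in both lines, from -0.16 for VEGFB in NF-YAl to -1.17 for PDGFB in NF-YAs MTSs. PDGFA was higher in both, by 0.55 and 0.78, under the limit on fold. PDGFB in NF-YAs MTSs was the only ligand called. Of the 10 genes, 4 were up-regulated and 0 down-regulated in NF-YAl relative to Empty MTSs, where 4.76% of all tested genes were up-regulated and 3.50% down-regulated. DESeq2 also called 0 of them down there, and by edgeR 3, VEGFA, VEGFC and PDGFB, were lower at an unadjusted p under 0.05. In NF-YAs against Empty MTSs, 4 were up-regulated and 1, PDGFB, was down-regulated, beside 5.44% and 3.90% of all tested genes. In NF-YAs against NF-YAl MTSs, ESM1 was up-regulated and KDR down-regulated, beside 2.86% and 1.74% of all tested genes. The median Log2FC of the 10 genes was 0.44, 0.61 and 0.18 in the 3 comparisons, where that of all tested genes was 0.01, -0.0026 and -0.02. As the 10 genes were chosen with earlier results of these data known, setting them beside all tested genes is a description only. RNA was taken from whole spheroids, so fewer cells that express a gene and less RNA per cell cannot be told apart.

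**Figure D1:**
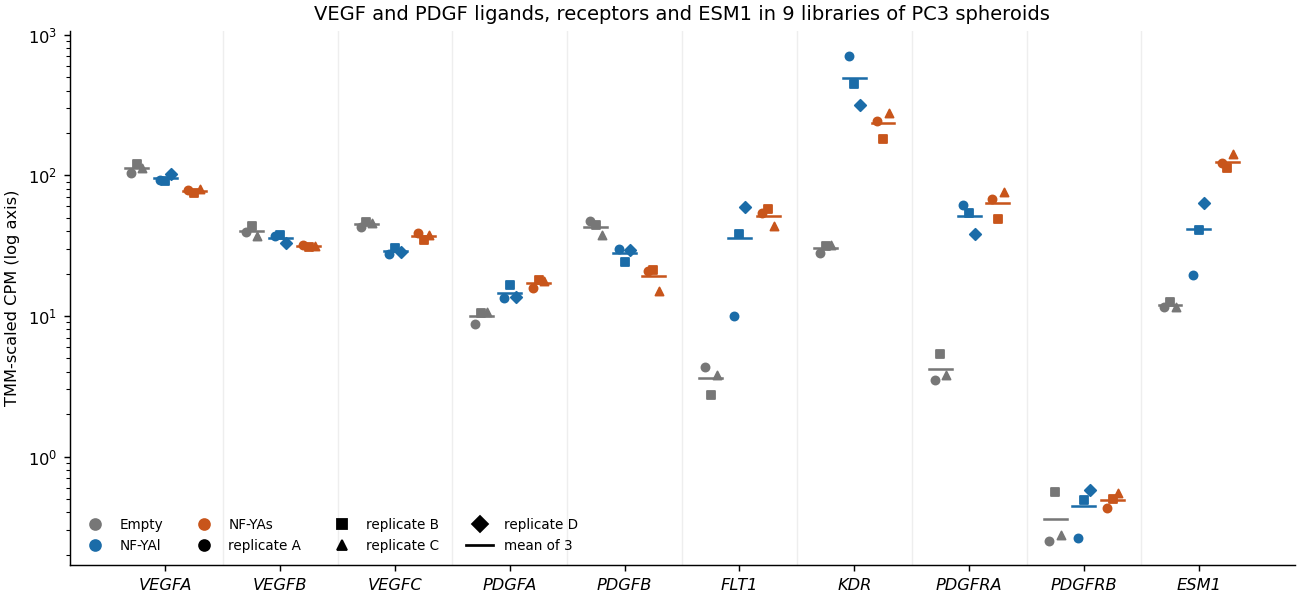
TMM-scaled CPM (log axis) of the 10 genes in the 9 libraries; colours are the groups, marker shapes the replicate letters and bars the means of 3 libraries. KDR, FLT1, PDGFRA and ESM1 of both over-expressing lines lie above all Empty libraries, and NF-YAl replicate A is the highest for KDR and the lowest of its group for FLT1 and ESM1.

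**Figure D2:**
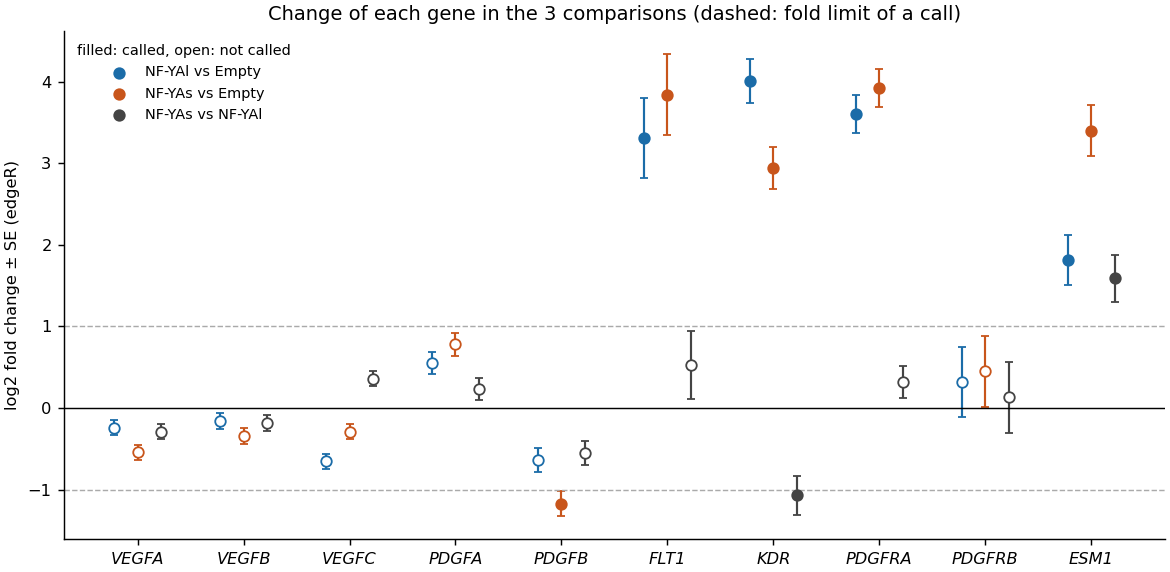
Log2 fold change of each gene with its SE from edgeR in the 3 comparisons; filled points were called and open points were not, and dashed lines mark a |Log2FC| of 1. The 3 receptors and ESM1 lie above 1 in both comparisons with Empty, from 1.81 to 4.01, and PDGFB is the only called ligand.

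KDR (VEGFR2), the main signalling receptor for VEGFA, was the receptor with the highest TPM in every group. Its level was 28.2, 31.3 and 32.1 CPM in the Empty libraries, 710, 445 and 318 CPM in NF-YAl replicates A, B and D, and 242, 182 and 279 CPM in NF-YAs replicates A, B and C. Both lines were above Empty in every library, and every NF-YAl library was above every NF-YAs library, though NF-YAl replicate D came close to NF-YAs replicate C. The Log2FC against Empty was 4.01 for NF-YAl (SE 0.268, edgeR adjusted p = 1.39e-06) and 2.94 for NF-YAs MTSs (SE 0.257, adjusted p = 6.64e-06). Without NF-YAl replicate A the former was 3.64, and without replicate D it was 4.24.

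Between the lines, KDR was lower in NF-YAs by a Log2FC of -1.07 (SE 0.238, edgeR adjusted p = 0.00754), which just passed both limits. This call did not hold without NF-YAl replicate A (-0.71, adjusted p = 0.00876), without NF-YAl replicate B (-1.14, adjusted p = 0.0149) or without NF-YAs replicates A (-1.09, adjusted p = 0.0278), B (-0.91, adjusted p = 0.0413) or C (-1.22, adjusted p = 0.0151). In a fit of the 6 libraries alone it was -1.07 with an adjusted p of 0.0256. For KDR the adjusted p ran from 6.49e-05 to 0.0413 over 13 alternatives, and 7 of these kept the call.

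FLT1 (VEGFR1), the receptor for VEGFA, VEGFB and PGF, was low in Empty MTSs, at 4.32, 2.74 and 3.78 CPM. It was 9.92, 38.0 and 59.2 CPM in NF-YAl replicates A, B and D and 53.5, 57.8 and 43.7 CPM in NF-YAs MTSs. All over-expressing libraries were above Empty, with NF-YAl replicate A the closest to it, and the lines overlapped. The Log2FC against Empty was 3.31 for NF-YAl (SE 0.487, edgeR adjusted p = 0.000311) and 3.84 for NF-YAs MTSs (SE 0.493, adjusted p = 9.82e-05).

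Within NF-YAl MTSs, FLT1 spread from 9.92 to 59.2 CPM. The Log2FC over Empty was 3.75 without replicate A and 2.75 without replicate D, and the call was kept in all 13 alternatives. NF-YAs against NF-YAl gave 0.53 (SE 0.417, adjusted p = 0.389), with 0.09 without NF-YAl replicate A and 1.09 (adjusted p = 0.0416) without replicate D, over a range of adjusted p of 0.0195 to 0.779. The order of the NF-YAl libraries in FLT1 was the reverse of that in KDR. On the TPM scale, which accounts for length, KDR was 62.5, 13.1 and 6.0 times FLT1 in NF-YAl replicates A, B and D. This ratio was 5.77, 9.73 and 6.30 in the Empty libraries and 5.12, 3.48 and 6.96 in the NF-YAs libraries, so that NF-YAl replicates A and B were above all other libraries.

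PDGFRA, which binds PDGFA, PDGFB and PDGFC, had 3.52, 5.32 and 3.78 CPM in the Empty libraries. NF-YAl replicates A, B and D had 61.1, 54.3 and 38.0 CPM and the NF-YAs libraries 67.3, 48.8 and 75.7 CPM. Both lines were far above Empty and overlapped each other, and here NF-YAl replicate A was not low. The Log2FC against Empty was 3.60 for NF-YAl (SE 0.232, edgeR adjusted p = 9.79e-07) and 3.92 for NF-YAs MTSs (SE 0.234, adjusted p = 5.08e-07), and 0.32 between the lines (SE 0.197, adjusted p = 0.256). Over the 13 alternatives the Log2FC ran from 3.36 to 3.83 in NF-YAl and from 3.73 to 4.13 in NF-YAs MTSs, and all were called.

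PDGFRB, the main receptor of PDGFB on mural cells, was barely detected. It had 6, 14 and 7 rounded counts in the Empty libraries, 5, 12 and 14 in the NF-YAl libraries and 8, 10 and 12 in the NF-YAs libraries, or 0.252 to 0.575 CPM in all. The groups overlapped. Its Log2FC was 0.32 in NF-YAl (SE 0.434, edgeR adjusted p = 0.624) and 0.45 for NF-YAs MTSs (SE 0.437, adjusted p = 0.46), and 0.13 between the lines (SE 0.429, adjusted p = 0.853), and a difference was not detectable at this depth.

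The tables also give FLT1 by transcript, as RSEM's estimates. Of 4 FLT1 transcripts, the longest has 7123 bases, the length of GENCODE's FLT1-201, with 30 exons and 1338 codons for the full receptor. Those of 6499 and 2968 bases were matched by length alone, within 5 bases, to FLT1-207 with 13 exons and 687 codons and to FLT1-204 with 15 exons and 733 codons. Such shorter transcripts are known to encode soluble forms that keep the ligand-binding domain and lack the kinase. The transcript of 1911 bases was matched to none and had 0 counts in all libraries.

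The longest transcript had 79, 51 and 56 expected counts in the Empty libraries, 128, 856 and 1268 in NF-YAl replicates A, B and D, and 868, 984 and 823 in the NF-YAs libraries. It was higher in every library of both lines than in any Empty library. The transcript of 6499 bases had 0, 0 and 1 expected counts in Empty libraries, 14.9, 41.9 and 124 in those of NF-YAl and 103, 133 and 79.7 in those of NF-YAs. That of 2968 bases had 23.5, 18.2 and 38.5 in Empty libraries, 44, 32.8 and 48.3 in those of NF-YAl and 22.2, 44 and 46.5 in those of NF-YAs, so that for this transcript the groups overlapped.

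By share of FLT1 TPM, the longest transcript made up 57.5, 53.1 and 36.7% in the Empty libraries, 50.5, 87.0 and 83.2% in NF-YAl replicates A, B and D, and 83.7, 79.4 and 80.2% in the NF-YAs libraries. The NF-YAs libraries were all above Empty, and NF-YAl replicate A lay among the Empty libraries. The mean share was 49.1 ± 11% in Empty MTSs, 73.6 ± 20.1% with NF-YAl and 81.1 ± 2.31% with NF-YAs (SD, n = 3). Two-sided exact permutation p-values were 0.3 for NF-YAl and 0.1 for NF-YAs against Empty and 0.9 between the lines, and 3 libraries against 3 cannot give less than 0.1. The transcript of 6499 bases took 0 to 0.72% in Empty, 4.68 to 8.93% in NF-YAl and 8.54 to 11.8% in NF-YAs libraries, with an exact p of 0.1 for both lines against Empty and 0.2 between them. The share of the 2968-base transcript was 42.5 to 62.5% in Empty, 7.84 to 43.1% in NF-YAl and 5.33 to 11.2% in NF-YAs libraries. When shares were taken over expected counts, in which long transcripts weigh more, the gain of the longest in NF-YAs MTSs was 16.5 percentage points in place of 32, and in NF-YAl MTSs it was 13 in place of 24.4.

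ESM1, the endothelial proteoglycan, had 11.5, 12.6 and 11.5 CPM in the Empty libraries. It had 19.6, 41.1 and 63.6 CPM in NF-YAl replicates A, B and D and 123, 113 and 141 CPM in the NF-YAs libraries. The 3 groups did not overlap, and the NF-YAl libraries were spread out in the same order as for FLT1. The Log2FC against Empty was 1.81 for NF-YAl (SE 0.305, edgeR adjusted p = 0.000784) and 3.40 for NF-YAs MTSs (SE 0.317, adjusted p = 1.04e-05). Without NF-YAl replicate A the former was 2.14, and without replicate D it was 1.37.

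ESM1 was also up-regulated in NF-YAs against NF-YAl MTSs, by 1.59 (SE 0.291, edgeR adjusted p = 0.00243). That call was not kept by edgeR in the fit of the NF-YA libraries alone (1.59, adjusted p = 0.0122), without NF-YAl replicate B (1.58, adjusted p = 0.0116) or without NF-YAs replicate C (1.5, adjusted p = 0.0126). For ESM1 the adjusted p ran from 7.35e-05 to 0.0126 over 13 alternatives, and 10 of these kept the call. It was 1.26 without NF-YAl replicate A and 2.04 without replicate D.

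By edgeR, 0 of the 3 VEGF ligands were called in any comparison. In each direction and comparison, 1.74 to 5.44% of all tested genes were called, so a count of 0 among 3 is near this share. VEGFA, the ligand of FLT1 and KDR, had 104, 121 and 113 CPM in the Empty libraries, 92.1, 91.4 and 102 CPM in NF-YAl and 78.9, 74.2 and 79.9 CPM in NF-YAs libraries. The 3 groups did not overlap and were ordered Empty, NF-YAl, NF-YAs. The Log2FC against Empty was -0.24 for NF-YAl (SE 0.0927, edgeR adjusted p = 0.0655) and -0.54 for NF-YAs MTSs (SE 0.0932, adjusted p = 0.000849), which passed the limit on p and not that on fold, and -0.29 between the lines (SE 0.0932, adjusted p = 0.0396).

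VEGFB, a ligand of FLT1 and not of KDR, had 39.6, 43.2 and 37.1 CPM in Empty, 37.2, 37.5 and 32.9 CPM in NF-YAl and 32.1, 30.9 and 31.6 CPM in NF-YAs libraries. Only NF-YAs did not overlap Empty, and its Log2FC of -0.34 had an edgeR adjusted p of 0.0164, beside -0.16 (adjusted p = 0.241) in NF-YAl. VEGFC, the lymphatic ligand that binds FLT4 and also KDR, was lowest in NF-YAl MTSs. It had 42.8, 46.5 and 45.9 CPM in Empty, 27.4, 30.3 and 28.4 CPM in NF-YAl and 38.7, 34.6 and 37.5 CPM in NF-YAs libraries, with no overlap between groups. Its Log2FC was -0.65 in NF-YAl (SE 0.0925, edgeR adjusted p = 0.000247), -0.29 in NF-YAs (adjusted p = 0.0286) and 0.36 between the lines (adjusted p = 0.0153). NF-YAl against Empty passed the limit on p and not that on fold.

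VEGFA had 20 transcripts in the tables, and the mean shares of its main ones differed by at most 2.99 percentage points between groups. A pair of transcripts of 3407 bases, between which the estimate was split evenly, took 49.5 ± 1.4% of VEGFA TPM in Empty MTSs, 48.8 ± 2.52% with NF-YAl and 48.7 ± 0.731% with NF-YAs (SD, n = 3). The transcript of 2552 bases took 43.1 ± 1.28, 44.2 ± 5.25 and 46.1 ± 1.08%, and the transcripts of 8 other lengths together took 7.48, 7.03 and 5.19%. The lowest two-sided exact permutation p was 0.1, for the 2552-base transcript in NF-YAs against Empty, a difference of 2.99 percentage points.

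PDGFA and PDGFB, the chains of the PDGF dimers, went opposite ways. PDGFA, whose homodimer binds PDGFRA only, had 8.72, 10.4 and 10.7 CPM in Empty, 13.5, 16.7 and 13.7 CPM in NF-YAl and 15.7, 18 and 17.7 CPM in NF-YAs libraries. Both lines were above Empty and overlapped each other. Its Log2FC against Empty was 0.55 for NF-YAl (SE 0.138, edgeR adjusted p = 0.00878) and 0.78 for NF-YAs MTSs (SE 0.138, adjusted p = 0.000905), under the limit on fold in each, and over the alternatives the former had an adjusted p of up to 0.0397. PDGFB, which binds both PDGF receptors, had 47.0, 44.5 and 37.5 CPM in Empty, 29.7, 24.3 and 29.6 CPM in NF-YAl and 21, 21.3 and 15 CPM in NF-YAs libraries. The 3 groups did not overlap. Its Log2FC was -0.63 in NF-YAl (SE 0.147, edgeR adjusted p = 0.00631), not called, and -1.17 in NF-YAs MTSs (SE 0.15, adjusted p = 9.51e-05), called in all 13 alternatives with a Log2FC of -1.26 to -1.03. Between the lines it was -0.55 (SE 0.15, adjusted p = 0.0215). Within a library, the TPM of PDGFA was 0.208 to 0.325 times that of PDGFB in Empty, 0.524 to 0.757 times in NF-YAl and 0.812 to 1.32 times in NF-YAs libraries, with no overlap between groups.

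Levels of different genes were compared on the TPM scale within each library, and genes are ordered here by their mean in a group. TPM of NF-YAl replicate D ran high, as for NRP1, which had 733 TPM there and 435 and 393 TPM in replicates A and B, beside 1851, 1802 and 1874 CPM. In Empty MTSs the ligands led, with VEGFA at 43.4 ± 4.49, VEGFB at 27.4 ± 4.79, VEGFC at 26.1 ± 3.12 and PDGFB at 16.8 ± 4.52 TPM (mean ± SD, n = 3). ESM1 at 6.95 ± 1.09, KDR at 5.78 ± 0.54 and PDGFA at 4.27 ± 0.209 TPM followed, then PDGFRA at 0.913 ± 0.13 and FLT1 at 0.847 ± 0.276 TPM, and PDGFRB was last at 0.07 ± 0.0265 TPM. This order held between neighbours in all 3 libraries except for VEGFB over VEGFC, in 2 of 3, and PDGFRA over FLT1, in 1 of 3. In NF-YAl MTSs, KDR came first at 112 ± 35.2 TPM, above VEGFA at 47.5 ± 18.5 TPM in all 3 libraries, and ESM1, next by its mean of 33.9 ± 28.5 TPM, was above VEGFB in 1 library only. In NF-YAs MTSs, ESM1 came first at 82.7 ± 8.3 TPM, above KDR at 49.8 ± 10.3 TPM, which was above VEGFA at 34.2 ± 3.34 TPM, each in all 3 libraries. VEGFA was 7.12 to 7.92 times KDR in Empty, 0.266 to 0.643 times in NF-YAl and 0.588 to 0.846 times in NF-YAs libraries. In each library of both lines the transcript of the receptor was thus the more abundant one, and in each Empty library that of the ligand. PDGFRA was 0.142 to 0.191 times KDR in Empty, 0.0838 to 0.122 times in NF-YAl and 0.267 to 0.289 times in NF-YAs libraries.

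Few tested genes around PDGFRA and KDR on chromosome 4 were called with them. KIT, the receptor gene between them, had 0 counts in all 9 libraries, which allows up to 3 counts per library by counting error. CHIC2, the tested gene nearest before PDGFRA, had a Log2FC over Empty of -0.50 for NF-YAl (edgeR adjusted p = 0.00509) and 0.08 for NF-YAs (adjusted p = 0.63). SRD5A3, the first tested one after KDR, had 0.91 (adjusted p = 0.000197) and 0.45 (adjusted p = 0.0145). Neither was called, and in NF-YAl both passed the limit on p and not that on fold. Of the 20 tested genes nearest to PDGFRA, 10 on each side, KDR alone was up-regulated in NF-YAl, and KDR and ERVMER34-1, named after its values were seen, in NF-YAs MTSs, with a median Log2FC of 0.04 and 0.19. For FLT1 the median of its 20 neighbours was 0.01 and 0.16, with FRY and SLC46A3 up-regulated in NF-YAs MTSs. For ESM1 it was -0.44 and -0.19, with FST, ITGA2 and IL31RA down-regulated in NF-YAl, and FST, ITGA2 and RNF138P1 down-regulated and MAP3K1 up-regulated in NF-YAs MTSs. These called neighbours, too, were named after their values were seen. As a background, 4.76% (NF-YAl) or 5.44% (NF-YAs) of all tested genes were up-regulated over Empty, and 3.50% or 3.90% down-regulated. For 20 genes, the 1 and 2 up-regulated neighbours of PDGFRA are near this background. Around ESM1, 3 of 20 genes were down-regulated for either line, a larger share, and this difference from the background was not tested.

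Other members of the families were read from a list of 8 genes, of which 7 were tested. PDGFD, a ligand of PDGFRB, was up-regulated in both lines, with a Log2FC of 1.38 in NF-YAl (edgeR adjusted p = 0.000228) and 1.53 in NF-YAs MTSs (adjusted p = 9.17e-05). NRP2, a coreceptor for VEGFA and VEGFC, was up-regulated in NF-YAs MTSs against both other groups. Its level was 3.27, 3.97 and 2.79 CPM in Empty, 3.29, 4.46 and 4.76 CPM in NF-YAl and 14.1, 17.0 and 12.1 CPM in NF-YAs libraries, with a Log2FC of 1.78 between the lines (adjusted p = 0.000108). PGF, an FLT1 ligand, was up-regulated in NF-YAs MTSs from 3 to 7 counts per Empty library to 16 to 21 (Log2FC 2.26, adjusted p = 0.00353). NRP1, PDGFC, FLT4 and PDGFRL were not called, and NRP1, the main VEGFA coreceptor, had 1717 to 1999 CPM over all 9 libraries. By count, 1 of 7 was up-regulated in NF-YAl and 3 of 7 in NF-YAs MTSs, beside 4.76% and 5.44% of all tested genes. By edgeR or DESeq2, 0 were down-regulated, beside 3.50% and 3.90% of all tested genes by edgeR. PDGFRL in NF-YAs had an unadjusted edgeR p of 0.0346. The list had a median Log2FC of 0.36 and 0.44.

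Among 18 genes that cut, store or release the ligands, 4 were up-regulated and 1 down-regulated with NF-YAl, and 6 and 1 with NF-YAs. The shares over all tested genes were 4.76% up-regulated and 3.50% down-regulated with NF-YAl, and 5.44% and 3.90% with NF-YAs. The median Log2FC was -0.05 and 0.34, or -0.09 and 0.33 without MMP2. SPARC, a matrix protein that binds PDGFB, had 267 to 320 CPM in Empty, 954 to 2375 CPM in NF-YAl and 699 to 779 CPM in NF-YAs libraries, with a Log2FC of 2.39 (edgeR adjusted p = 3.68e-05) and 1.32 (adjusted p = 0.00159). ADAMTS3, a protease of VEGFC maturation, was up-regulated in NF-YAs MTSs (1.91, adjusted p = 3.78e-06). MMP9, a gelatinase that frees VEGFA from matrix, was up-regulated in both lines, by 1.49 (adjusted p = 0.000702) and 3.03 (adjusted p = 3.25e-06). MMP2, the other gelatinase, had 0 counts in the Empty libraries, 0, 1 and 1 in those of NF-YAl and 18, 23 and 23 in those of NF-YAs. PCSK5, SDC2, SPARC and MMP9 were the 4 up-regulated genes in NF-YAl, and PLAT, tissue plasminogen activator, was down-regulated there. HSPG2 (perlecan) was down-regulated in NF-YAs MTSs.

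Of 46 genes of receptor signalling, 45 were tested. In NF-YAl MTSs 2 were up-regulated and 1 down-regulated, and in NF-YAs MTSs 4 and 2, with a median Log2FC of 0.02 and 0.07. These counts are near the share over all tested genes, of which 4.76% were up-regulated and 3.50% down-regulated with NF-YAl, and 5.44% up-regulated and 3.90% down-regulated with NF-YAs. NRAS, a RAS GTPase, had 2.64, 1.59 and 1.34 CPM in Empty, 13.7, 21 and 28.4 CPM in NF-YAl and 25.5, 23.0 and 21.7 CPM in NF-YAs libraries (Log2FC 3.51, edgeR adjusted p = 5.55e-06, and 3.66, adjusted p = 3.44e-06). VAV3, a guanine nucleotide exchange factor, was up-regulated by 1.46 (adjusted p = 0.000121) and 1.57 (adjusted p = 5.92e-05). PTPRB, an endothelial receptor phosphatase, was down-regulated in NF-YAl MTSs (-1.34, adjusted p = 0.00235) and higher in NF-YAs than in NF-YAl MTSs (1.35, adjusted p = 0.00394). SPHK1, a sphingosine kinase downstream of VEGF, and SH2D2A, an adapter that binds KDR, were up-regulated in NF-YAs MTSs, by 2.51 (adjusted p = 5.85e-07) and 3.54 (adjusted p = 6.28e-05). The adapter genes SHC1 and SHC2 were down-regulated in NF-YAs MTSs.

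Genes that are transcribed in response to ERK and calcineurin signals were read from a list of 18, of which 17 were tested. By edgeR and by DESeq2, 0 were up-regulated in either line, a count near the background of 4.76% and 5.44% of all tested genes for a list of this length. At an unadjusted p under 0.05 by edgeR, 3 were higher and 6 lower with NF-YAl, and 4 higher and 9 lower with NF-YAs. By edgeR, the down-regulated ones were RCAN1 and DUSP5 in both lines and KLF2 in NF-YAs MTSs, beside 3.50% and 3.90% of all tested genes. DESeq2 called 2 down with NF-YAl and 4 with NF-YAs. RCAN1, a calcineurin response gene, had 268 to 398 CPM in Empty, 121 to 173 CPM in NF-YAl and 96.4 to 108 CPM in NF-YAs libraries, with a Log2FC of -1.26 (edgeR adjusted p = 9.53e-05) and -1.76 (adjusted p = 8.97e-06). DUSP5, an ERK phosphatase, had 329 to 368, 110 to 234 and 121 to 193 CPM (Log2FC -1.15, adjusted p = 0.0042, and -1.26, adjusted p = 0.00218). DUSP6, another ERK phosphatase, was higher in both lines under the limit on fold, by 0.56 (adjusted p = 0.000603) and 0.72 (adjusted p = 8.97e-05). The median Log2FC of the list was 0.03 for NF-YAl and -0.47 for NF-YAs.

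Markers of the cells in which these receptors are usually found were read beside them. Of 16 endothelial markers 8 were tested, and ERG, EMCN, TAL1 and SOX17 had at most 3 counts in every library of every group. CDH5, which defines endothelial junctions, had 2 to 11 counts per library and was not tested. EGFL7 and SOX18 were up-regulated in both lines, EGFL7 by 3.76 (edgeR adjusted p = 3.17e-07) and 2.73 (adjusted p = 1.76e-06), while VWF was down-regulated in NF-YAl and PECAM1 in NF-YAs MTSs. The summed TPM of the endothelial list was 11.5 to 15.9 in Empty, 27.8 to 44.2 in NF-YAl and 25.9 to 27.8 in NF-YAs libraries. EGFL7 and ROBO4 were the largest parts of this rise. By mean TPM in Empty, NF-YAl and NF-YAs, EGFL7 had 0.907, 16.5 and 7.2 and ROBO4, which was not called, 6.28, 11.6 and 12.7. PECAM1 had 1.62, 1.89 and 0.55 TPM and VWF 0.89, 0.11 and 0.9 TPM. TPM of NF-YAl replicate D ran high here as well. Of 14 pericyte and stromal markers 8 were tested, with FAP at 3 counts or fewer in every library and DCN and LUM in the Empty libraries. CSPG4 (NG2) and KCNJ8 were up-regulated in both lines, NOTCH3 and PDPN in NF-YAl and COL1A2 in NF-YAs MTSs, and 0 were down-regulated against Empty by edgeR or DESeq2, also at an unadjusted p under 0.05. The median Log2FC of the 8 tested pericyte and stromal markers was 1.3 and 1.38, and their list's summed TPM was 33.2 to 71.5, 46.1 to 81.4 and 44.5 to 62.9. The part of these markers in the changes of KDR, FLT1, PDGFRA and ESM1 was not tested.

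Among 9 epithelial and PC3 markers, of which 8 were tested, EPCAM was up-regulated in both lines, TMPRSS2 was down-regulated in both, KRT8 in NF-YAl and CDH1 in NF-YAs MTSs. Under the limit on fold, KRT19 was lower by -0.71 (edgeR adjusted p = 0.000207) and -0.79 (adjusted p = 8.56e-05). KRT18 was lower by -0.42 (adjusted p = 0.00722) and -0.49 (adjusted p = 0.00255), and KRT8 in NF-YAs by -0.78 (adjusted p = 7.91e-05). VIM, a mesenchymal gene of this list, had 0.28 (adjusted p = 0.15) and 0.55 (adjusted p = 0.00894). The list's median Log2FC was -0.12 and -0.63. KLK3 had at most 3 counts in every library. The summed TPM, which adds VIM to the keratins, was 1373 to 1739 in Empty, 1141 to 2037 in NF-YAl and 1514 to 1648 in NF-YAs libraries.

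The genes whose log2 CPM followed each called gene most closely over the 9 libraries were listed by Pearson's r, as a description. These libraries fall into 3 groups, and the choice was made among all 17108 tested genes. KDR was followed by MAN1A2 (r = 0.994) and SCN9A (0.993). FLT1 was followed by CDK6 (0.994), MELTF (0.987) and FAF1 (0.987), PDGFRA by VAV3 (0.998), ALG14 (0.995) and SEMA6B (0.994), and ESM1 by ENDOD1 (0.997), GPC6 (0.992) and LINC02085 (0.992). PDGFB was followed by PSMD11 (0.979), GPR89A (0.978) and RNMT (0.974).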

How the data were processed

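RNA-seq of 9 libraries of PC3 MTSs was analysed, with groups and replicate letters taken from the sample labels. The methods describe independent experiments, without saying how the letters map onto them. Per the labels, libraries were made with a stranded total RNA kit. Per the study's methods, the authors aligned reads to the human transcriptome of GRCh37 with bowtie2 within RSEM. Whether counting used the strand is not given in the sources used here. The deposited expected counts, estimated by RSEM for genes and transcripts, are not normalized. The deposited TPM are scaled by RSEM to length and to the same total per library. They were used to compare genes within a library, and between libraries only as levels of FLT1 transcripts and of marker lists, summed or by gene. The authors also deposited, for transcripts, the percent of the gene's TPM.

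Expected counts were rounded, filtered by filterByExpr, scaled by TMM and tested in R 4.3.3 by edgeR 4.0.16, with the 9 libraries in one quasi-likelihood fit. The study's methods used DESeq2, which was run as an alternative (version 1.42.0) with the same thresholds. SEs are |log2FC| over the square root of F. The transgenes are murine, and an unknown number of their reads aligned to human NFYA and entered its count. Shares of transcripts were compared by two-sided exact permutation tests. The procedure was tested on simulated data. Gene positions were taken from GENCODE annotation on GRCh37, and promoter sequences from RefSeq on GRCh38.p14.

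The 10 genes and the gene lists were chosen with earlier results of these data known, and the lists were written from general knowledge. The text names the 10 genes, NF-Y subunits, and called genes, absent defining markers and some uncalled genes of the lists. For each called gene of the 10, it also names the 3 tested genes with the highest Pearson's r of log2 CPM with a prior count of 2. Of these, 1 gene is not reported here. Alternatives were other scalings, filters, thresholds and offsets, a fit of the groups compared, a replicate block and leaving out each library in turn. Figures were drawn with matplotlib 3.10.9.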

Additional observations from a re-analysis of the deposited data

How the results depend on the processing

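The 4 up-regulated genes of each over-expressing line, and PDGFB in NF-YAs MTSs, kept their calls under every alternative that gave them a value. In NF-YAs against NF-YAl MTSs, the fit of the 6 libraries alone called 0 genes up and 0 down, in place of 1 and 1, and leaving out 1 library in turn gave 0 to 1 in each direction. The cause was not tested, beyond that these fits rest on fewer libraries. PDGFRB, at 5 to 14 counts, changed sign between the lines without NF-YAl replicate A, with a Log2FC of -0.10 to 0.35 over the libraries left out. Taken over expected counts, the difference in the share of the longest FLT1 transcript in NF-YAs against Empty was 16.5 percentage points in place of 32, and that of the 2968-base transcript -26.2 in place of -42.2. In NF-YAl against Empty these were 13 in place of 24.4 and -19.7 in place of -30.9, since counts weigh transcripts by length. Under a minimum of 10 counts in every library, PDGFRB had no value. Of all values of single genes under the alternatives, 397 kept their direction and their side of the thresholds, 10 were stronger, 9 weaker and 1 reversed.

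With the replicate letter as a block, 4 genes were up-regulated in each line against Empty, 1 was down-regulated in NF-YAs, and 1 went each way between the lines, as without it. Over all tested genes it gave 905 up-regulated and 642 down-regulated genes in NF-YAl against Empty in place of 815 and 599. FLT1 in NF-YAl then had a Log2FC of 2.54 in place of 3.31. As the only library of its letter, NF-YAl replicate D took up a block term of its own. It thus did not inform the comparisons in this fit, which is no separate check of pairing. Deviations of same-letter libraries correlated by -0.0652 to 0.253 and those of different letters by -0.22 to 0.163. These ranges overlap, and not every library correlated best with its own letter. NF-YAl replicate D shares its letter with none. Whether the letters pair libraries was thus not settled.

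With 3 libraries per group, no permutation p can go below 0.1. FLT1 transcripts in Empty MTSs rest on 18.2 to 79 expected counts each, or on at most 1 for that of 6499 bases, and such shares are model estimates with no counting interval.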

Other observations

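Genes that respond to low oxygen, of which VEGFA is a classic one, were lower on balance in both lines. The 18 hypoxia genes, all tested, include not only response genes but also the regulators HIF1A, EPAS1, ARNT and VHL. Of the 18, 0 were up-regulated and 4 down-regulated with NF-YAl, and 0 and 5 with NF-YAs. Of all tested genes, 4.76% were up-regulated and 3.50% down-regulated with NF-YAl, and 5.44% and 3.90% with NF-YAs. The list had a median Log2FC of -0.60 and -0.67, where that of all tested genes was 0.01 and -0.0026. DESeq2 called 1 up with NF-YAl and 0 with NF-YAs, and at an unadjusted p under 0.05 edgeR had 4 and 1 higher. NDRG1, a hypoxia-induced gene, had 989 to 1285 CPM in Empty, 455 to 580 CPM in NF-YAl and 313 to 331 CPM in NF-YAs libraries (Log2FC -1.13, edgeR adjusted p = 3.46e-05, and -1.82, adjusted p = 1.45e-06). EPAS1, which encodes the hypoxia factor HIF2A, had a Log2FC of -1.65 (adjusted p = 0.000135) and -2.52 (adjusted p = 8.98e-06), ADM, the vasodilator adrenomedullin, of -1.07 (adjusted p = 0.000398) and -1.74 (adjusted p = 1.31e-05), and the oxygen sensor EGLN3 of -2.11 (adjusted p = 0.000811) and -1.99 (adjusted p = 0.00108). SLC2A1, a glucose transporter, was down-regulated in NF-YAs MTSs (-1.56, adjusted p = 1.82e-06). CA9, a carbonic anhydrase, went another way, with 13.3, 11.5 and 15.3 CPM in Empty, 14.2, 30.7 and 39.1 CPM in NF-YAl replicates A, B and D and 11.9, 8.76 and 9.26 CPM in NF-YAs libraries, and was down-regulated in NF-YAs against NF-YAl MTSs (-1.49, adjusted p = 0.00348).

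Of 33 other angiogenesis ligands and receptors, 28 were tested. In NF-YAl MTSs 4 were up-regulated and 3 down-regulated, and in NF-YAs MTSs 7 and 6, with a median Log2FC of 0.11 and 0.23. ADM, counted above among the hypoxia genes, is one of the down-regulated ones in both lines. Of all tested genes, 4.76% were up-regulated and 3.50% down-regulated with NF-YAl, and 5.44% and 3.90% with NF-YAs. APLN, the peptide ligand apelin, and ANGPTL4, a secreted lipase inhibitor, were down-regulated in both lines, APLN by a Log2FC of -2.04 (edgeR adjusted p = 9.05e-07) and -1.86 (adjusted p = 1.54e-06) and ANGPTL4 by -1.63 (adjusted p = 4.34e-05) and -2.42 (adjusted p = 2.98e-06). The angiogenesis inhibitor VASH1, the semaphorin SEMA3F and the semaphorin receptor PLXND1 were up-regulated in both lines. The thrombospondins THBS1 and THBS2, which inhibit angiogenesis, and the TGF beta coreceptor ENG were up-regulated in NF-YAs against Empty and against NF-YAl MTSs, THBS1 from 49.7 to 56.2 CPM in Empty and 69.7 to 126 CPM in NF-YAl to 250 to 265 CPM in NF-YAs libraries. CXCR4, the chemokine receptor of CXCL12, was down-regulated in NF-YAs against both other groups, by -1.53 (adjusted p = 9.66e-05) and -1.42 (adjusted p = 0.00047).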
